A study of Homo sapiens with 6 samples.

Results

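The 9 genes described here encode unconventional myosins, the actin-based motors outside the filament-forming class II myosins of muscle and stress fibers. They are MYO1C, MYO1D, MYO1E, MYO5A, MYO6, MYO9A, MYO9B, MYO10 and MYO18A, and they are 9 of the 60780 rows of the deposited table. The 9 genes were selected on values measured in these same libraries, namely their level and their difference between the 2 media, and no cut-off was stated. Their differences are therefore given as a description, and where a member is counted among the genes called over the whole table, that call is not independent of the selection. All 9 passed the filter on low counts, and each had a single row with an Ensembl identifier.

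The RNA was that of LX-2 cells, an immortalized human hepatic stellate cell line, cultured for 24 h in medium conditioned by HCT116 cells, a human colorectal carcinoma line. The Vector-CM group (n = 3) received medium from HCT116 cells infected with an empty lentiviral vector with EGFP and puromycin resistance. The FGFBP1-CM group (n = 3) received medium from HCT116 cells infected with the same lentivirus carrying FGFBP1, a secreted protein that releases fibroblast growth factors from the matrix, so both media came from lentivirus-infected tumor cells. The labels do not say whether the libraries of a group came from separate cultures, so the spread between them may be technical.

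A typical unconventional myosin has a motor domain that binds actin and hydrolyzes ATP, and a neck that carries calmodulin or light chains. Its tail sets what the protein carries or anchors. Class I myosins link membranes to actin, class V myosins carry vesicles and organelles toward the barbed ends of actin filaments, and MYO6 is the motor that moves the other way. Class IX myosins carry a GTPase-activating domain in the tail, MYO10 moves to the tips of filopodia, and MYO18A ties Golgi membranes to actin. In stellate cells, as in other contractile cells of the fibroblast type, actin motors act in adhesion, traffic and contraction.

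Positions were looked up by Ensembl identifier in GENCODE 29 (GRCh38), where all 9 genes are protein coding. Class V is represented by MYO5A (ENSG00000197535; chromosome 15, 52307283 to 52529050, minus strand), and the motor of reverse direction by MYO6 (ENSG00000196586; chromosome 6, 75749192 to 75919537, plus strand). Class IX comprises MYO9A (ENSG00000066933; chromosome 15, 71822289 to 72118577, minus strand) and MYO9B (ENSG00000099331; chromosome 19, 17075781 to 17214537, plus strand). MYO10 (ENSG00000145555) lies on chromosome 5, 16661914 to 16936276, minus strand, and MYO18A (ENSG00000196535) on chromosome 17, 29071124 to 29180412, minus strand. The class I genes are MYO1C (ENSG00000197879; chromosome 17, 1464186 to 1492812, minus strand), MYO1D (ENSG00000176658; chromosome 17, 32492522 to 32877177, minus strand) and MYO1E (ENSG00000157483; chromosome 15, 59132434 to 59372900, minus strand). All are long, with 31 to 52 exon blocks and longest transcripts of 5057 to 12411 bases. The processing notes list hg18 without giving its role, so these positions need not be those used for the counts.

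The start regions of MYO5A, the member with the greatest difference between media, and of MYO10, the member with the highest mean FPKM, are shown side by side to compare the sequence before their starts. Each run holds the 250 bases before the RefSeq start site (GRCh38.p14), read 5′ to 3′ on the minus strand, at chr15:52529051-52529300 for MYO5A and chr5:16936289-16936538 for MYO10. Capitals mark GGGCGG, the GC box, on either strand.
MYO5A: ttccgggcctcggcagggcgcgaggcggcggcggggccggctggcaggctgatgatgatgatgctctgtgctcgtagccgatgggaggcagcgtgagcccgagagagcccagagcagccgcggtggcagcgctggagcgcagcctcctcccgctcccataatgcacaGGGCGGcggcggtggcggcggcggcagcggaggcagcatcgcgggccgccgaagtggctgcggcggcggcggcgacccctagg
MYO10: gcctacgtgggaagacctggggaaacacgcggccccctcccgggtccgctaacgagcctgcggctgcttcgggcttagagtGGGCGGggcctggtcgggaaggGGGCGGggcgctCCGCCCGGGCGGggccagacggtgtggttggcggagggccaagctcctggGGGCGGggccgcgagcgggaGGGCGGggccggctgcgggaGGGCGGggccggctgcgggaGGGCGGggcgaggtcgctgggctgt
The MYO5A run held 1 GC box and the MYO10 run 8, while 42.6% of 35116 start regions of the same length held at least 1. GC content was 75.2% and 78.8%, against a median of 58.0% over all start regions. Neither run held the EGR motifs GCGTGGGCG or GCGGGGGCG (present in 0.72% and 4.72% of all start regions), the AP-1 motif TGANTCA (6.57%) or the cyclic AMP response motif TGACGTCA (1.65%) on either strand. Among the 14 start regions of the 9 members, the second EGR motif was present in those of MYO6 and MYO9A and in a MYO1C region. That MYO1C region also held the AP-1 motif. The other start regions held no EGR, AP-1 or cyclic AMP response motif. The second EGR motif and the GC box can overlap. These counts only describe letters in 250 bases.

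Total counts ranged from 14003780 to 18508113 per library, and the 6 libraries were placed by the first principal component (49% of the variance) at -15.9 to -11.6 for Vector-CM and at 34.2, 3.69 and 4.97 for FGFBP1-CM replicates 1 to 3. FGFBP1-CM replicate 1 thus stood apart, and values without it are given beside each member. LX-2 cells were checked against 12 stellate markers. VIM, TIMP1 and SPARC had 457, 204 and 94.8 FPKM, and COL1A1, COL3A1, PDGFRB and COL1A2 had 16.6, 5.34, 3.38 and 2.03 FPKM. ACTA2 and RGS5 were low, at 1.5 and 1.21 FPKM, and GFAP had 0.047 FPKM and at most 13 counts in a library. LRAT, the retinol-esterifying enzyme of quiescent stellate cells, had 0 counts in all 6 libraries and DES at most 4 counts. The 20 hepatocyte markers summed to 46.7 to 49.7 CPM (counts scaled to a common library size) in Vector-CM and 22.3 to 32.5 CPM in FGFBP1-CM, with 4 of 10 tested markers called lower and none at 0 in all libraries. Most of that sum was SERPINA1, which was not called, at a mean of 29.6 and 20.7 CPM. The 4 called were ALB, APOB, AFP and FGA, at 3.43, 3.37, 3.11 and 0.933 CPM in Vector-CM and 0.611, 0.278, 0.669 and 0.0594 CPM in FGFBP1-CM. The 12 stellate markers summed to 3560 to 3830 CPM and 2760 to 3300 CPM, with 1 of 9 tested markers, TIMP1, called lower. Over all 16707 tested genes, 20 (0.12%) were called at an adjusted p under 0.05 by edgeR, 9 higher and 11 lower. That number depended on the processing. The 13 markers of colorectal epithelium summed to 4.77 to 7.01 CPM and 4.22 to 5.9 CPM, with CEACAM5 at 0. The part of these markers in the values below was not tested, and in bulk RNA fewer cells of a type and less RNA per cell cannot be told apart.

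The level of each member was first set out per length, as FPKM (fragments per gene length and library size), over the 6 libraries. MYO10 had 34.8 ± 2.56 FPKM (SD, n = 6) and MYO1C 34.1 ± 2.96 FPKM, and their ranges overlapped, with MYO10 above MYO1C in 4 of 6 libraries. The FPKM imply gene lengths of 13982 bases for MYO10 and 7806 for MYO1C. Their longest transcripts had 11456 and 5057 bases, so another choice of length could change their order. MYO9B followed at 20.5 ± 0.913 FPKM, MYO1E at 16.2 ± 1.08 FPKM and MYO6 at 12.5 ± 1.17 FPKM, and each of these ranges was separate from the next. MYO5A (9.26 ± 1.53 FPKM) and MYO18A (8.66 ± 0.326 FPKM) could not be ordered over all libraries, since MYO5A was below MYO18A in each Vector-CM library and above it in each FGFBP1-CM library. MYO1D (5.93 ± 0.566 FPKM) and MYO9A (3.99 ± 0.434 FPKM) were the lowest, again with separate ranges. The implied lengths were 12971 bases for MYO5A and 15035 for MYO18A, against longest transcripts of 12225 and 9992. For MYO6 and MYO9A they were 10727 and 20320 bases, against 8692 and 12411. The order of MYO5A and MYO18A in each group and the separate ranges thus refer to the implied lengths, and another choice of length could change them.

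**Figure D1:**
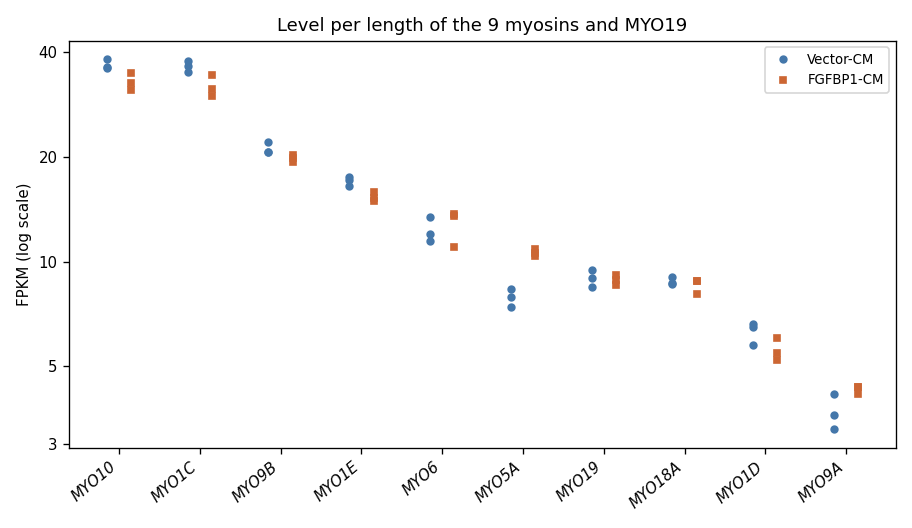
Level per length (FPKM, log axis) of the 9 members and MYO19, with each point a library, circles for Vector-CM (n = 3) and squares for FGFBP1-CM (n = 3). MYO10 and MYO1C sit highest, at 30.0 to 38.2 FPKM, and MYO5A sits at 7.42 to 8.34 FPKM in Vector-CM and at 10.4 to 10.9 FPKM in FGFBP1-CM.

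Against the 25 unconventional myosin genes as a whole, the 9 members held 82.2%, 82.8% and 82.6% of the summed FPKM in the Vector-CM libraries and 79.5%, 81.5% and 80.3% in the FGFBP1-CM libraries. MYO19, a motor of mitochondria, was outside the selection although its level was like that of MYO5A and MYO18A (8.91 ± 0.381 FPKM). MYO7B, far lower, was at 0.486 ± 0.11 FPKM. The summed FPKM of all 25 genes was 182 ± 3.04 in Vector-CM and 176 ± 5.02 in FGFBP1-CM (SD, n = 3).

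MYO5A, the class V motor that carries melanosomes, secretory vesicles and endoplasmic reticulum, had 109, 97.4 and 105 CPM in Vector-CM replicates 1 to 3 and 138, 135 and 137 CPM in FGFBP1-CM replicates 1 to 3. All FGFBP1-CM libraries were above all Vector-CM libraries. The counts behind these levels were 1947, 1347 and 1564 against 2608, 2155 and 2240. The log2 fold change (log2FC, FGFBP1-CM over Vector-CM) was 0.40 (SE 0.0639), a level 31.5% higher in FGFBP1-CM, and it was 0.39 without FGFBP1-CM replicate 1. The coefficient of variation was 5.57% in Vector-CM and 0.89% in FGFBP1-CM, where counting alone would give 2.49% and 2.07%.

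MYO5A made up 94.6% to 96.3% of the FPKM of class V in the 6 libraries, with MYO5B and MYO5C far below it. As a share of the whole family, MYO5A took 4.33% ± 0.237 in Vector-CM and 6.04% ± 0.287 in FGFBP1-CM (SD, n = 3). The ratio of MYO5A to MYO10 within a library does not depend on library scaling, though a correction for GC content can change it. It was 0.233, 0.194 and 0.219 in Vector-CM and 0.348, 0.298 and 0.326 in FGFBP1-CM. The ratios of MYO5A to each of the 8 other members were all higher in every FGFBP1-CM library than in any Vector-CM library. As all of these genes were selected with their differences known, nothing is read from that. The ratio to MYO9A differed least, at 2.15 ± 0.129 against 2.48 ± 0.118 (SD, n = 3).

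MYO6, the motor directed to the pointed ends of actin filaments and used in endocytosis and autophagy, had 145, 125 and 132 CPM in Vector-CM and 115, 146 and 146 CPM in FGFBP1-CM. The groups overlapped, since FGFBP1-CM replicate 1 was the lowest of the 6 libraries while the other 2 were the highest by a small margin. The log2FC was 0.02 (SE 0.091), 0.13 without FGFBP1-CM replicate 1, and below 0 in 5 of the 16 alternative fits.

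The class IX pair gave values on either side of 0. MYO9A had 85.1, 67.9 and 75.5 CPM in Vector-CM and 82.5, 88.7 and 88.0 CPM in FGFBP1-CM, with a log2FC of 0.18 (SE 0.0813; 0.21 without FGFBP1-CM replicate 1). The groups overlapped, because Vector-CM replicate 1 was above FGFBP1-CM replicate 1. MYO9B had 220, 208 and 212 CPM in Vector-CM and 197, 199 and 191 CPM in FGFBP1-CM, with a log2FC of -0.12 (SE 0.0599; -0.13 without FGFBP1-CM replicate 1). All MYO9B values in FGFBP1-CM were below all those in Vector-CM. MYO9A accounted for 14.9% ± 1.06 of the class IX FPKM in Vector-CM and 17.8% ± 0.724 in FGFBP1-CM (SD, n = 3). The summed FPKM of the pair was 24.8 ± 1.21 and 24.1 ± 0.428.

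MYO10, which carries integrins and membrane lipid signals into filopodia, had 504, 542 and 519 CPM in Vector-CM and 426, 489 and 453 CPM in FGFBP1-CM. The groups did not overlap, and FGFBP1-CM replicate 1 was the lowest. The log2FC was -0.19 (SE 0.0685), and -0.14 without that library. MYO18A had 132, 137 and 133 CPM in Vector-CM and 129, 132 and 121 CPM in FGFBP1-CM, with overlapping groups and a log2FC of -0.07 (SE 0.0631; -0.08 without FGFBP1-CM replicate 1). MYO18A shares 1394 bp of exon with TIAF1 on the same strand, which had 325 counts in the 6 libraries against 12750 for MYO18A. Reads from the shared part could have been counted for either gene or for neither. Exons of MYO9A and MYO1E overlap those of SENP8 (160 bp) and FAM81A (87 bp) on the other strand, while MYO5A, MYO6, MYO10 and MYO1C share no exonic base with another gene.

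The 3 class I members were lower in mean level in FGFBP1-CM. MYO1C, which tethers membrane to cortical actin and helps deliver vesicles to the surface, had 285, 299 and 280 CPM in Vector-CM and 239, 269 and 233 CPM in FGFBP1-CM, with separate groups and a log2FC of -0.22 (SE 0.0694). MYO1E, found at adhesions and endocytic sites, had 151, 161 and 160 CPM against 132, 145 and 137 CPM, again with separate groups (log2FC -0.19, SE 0.064). MYO1D had 54.5, 47.8 and 54.5 CPM against 41.6, 49.4 and 44.3 CPM, where FGFBP1-CM replicate 2 lay above Vector-CM replicate 2 (log2FC -0.22, SE 0.0832). Without FGFBP1-CM replicate 1 the log2FC values of MYO1C, MYO1D and MYO1E were -0.20, -0.16 and -0.16. The summed FPKM of the 8 class I genes was 80.9 ± 1.02 in Vector-CM and 76.7 ± 2.15 in FGFBP1-CM (SD, n = 3).

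**Figure D2:**
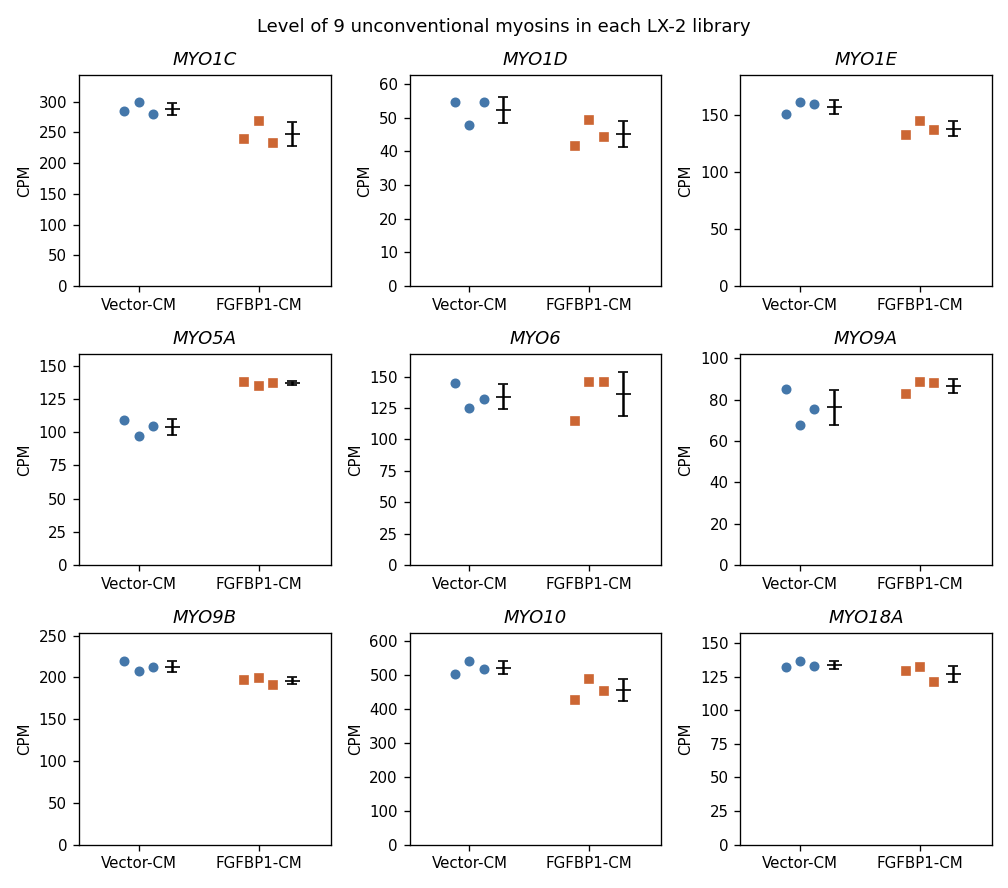
CPM of the 9 members in each library on axes that start at 0, with circles for Vector-CM, squares for FGFBP1-CM and black bars for the mean and SD of 3 libraries. The FGFBP1-CM points lie above all Vector-CM points for MYO5A and below all of them for MYO1C, MYO1E, MYO9B and MYO10.

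Counted over the members, 3 had a log2FC above 0 and 6 below, with a median of -0.12, where the median of all 16707 tested genes was 0.00. The 20 genes called over the whole table at an adjusted p under 0.05 by the edgeR quasi-likelihood test (0.12% of tested genes) held 1 member, MYO5A, and none when any one of the 3 Vector-CM libraries was left out or when limma was run on FPKM. A log2FC above that of MYO5A was found for 7.02% of tested genes. The groups did not overlap for 5 members, as for 26.0% of all tested genes. Of these, 1 member was higher in FGFBP1-CM (12.8% of all genes) and 4 were lower (13.2%). As the members were picked with these values known, nothing is read from these counts, the call of MYO5A included. The counts behind a member ranged from 661 to 9024 per library. At the mean count of a member in a group, counting alone gives 1.11% to 3.61% of relative error. For MYO18A in Vector-CM the spread between libraries (2.34%) was close to that of counting (2.2%), as for MYO9B in FGFBP1-CM (2.15% and 1.73%).

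**Figure D3:**
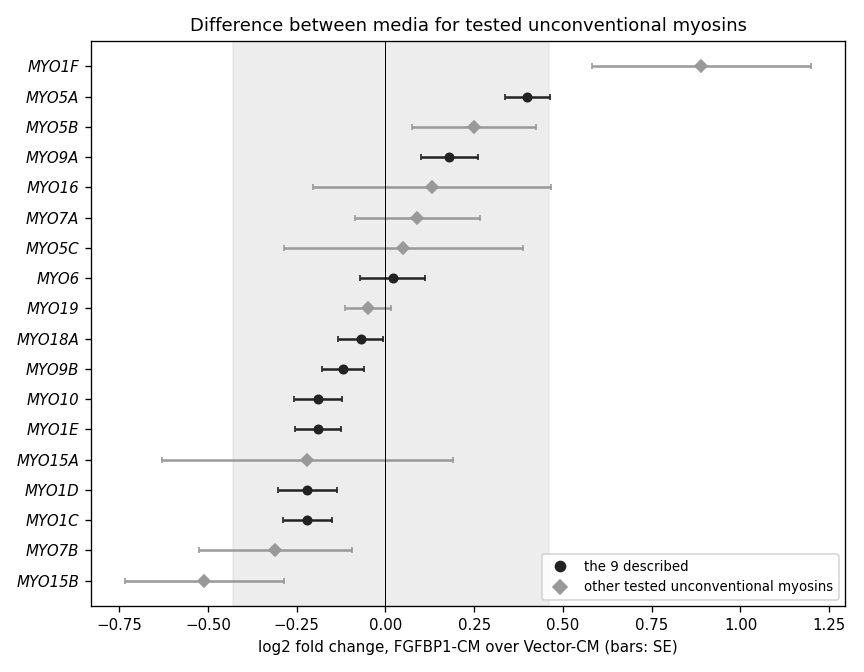
Log2 fold change (FGFBP1-CM over Vector-CM, bars are SE) of tested unconventional myosins, with circles for the 9 described and diamonds for 9 others, and with the range between the 5th and 95th percentiles of all tested genes (-0.43 to 0.46) shaded. The members lie between -0.22 and 0.40, inside the shaded range.

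What the selection did not use is the base composition of the transcripts, and it was set beside the differences. The 3 members with a log2FC above 0 were the 3 with the lowest GC content of their longest transcript, MYO6 at 39.2%, MYO9A at 42.3% and MYO5A at 43.3%. The other 6 ranged from 47.6% (MYO1E) to 60.4% (MYO9B). The members were picked with these differences known, and the log2FC of MYO6 (0.02, SE 0.091) was within its standard error of 0. Nothing is read from this match. MYO19, at 55.2%, had a log2FC of -0.05. Far lower in level, MYO1F (59.3%) and MYO7A (58.8%) had log2FC values of 0.89 and 0.09. MYO7B (60.1%), MYO15A (61.8%) and MYO15B (65.7%), also low, had -0.31, -0.22 and -0.51. Over the 16401 tested genes with a known GC content, log2FC ran with GC content at a Spearman correlation of -0.206, across genes, which are not independent replicates. The median log2FC was 0.06 for genes under 40% GC and -0.08 for genes of 60% or more.

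After each library's trend with GC content and length was removed, that correlation was -0.0156, and the log2FC values of MYO5A, MYO9A and MYO6 were 0.33, 0.11 and -0.07. MYO10 and MYO1E then had -0.23 and -0.24, further below 0 than before, while MYO1C, MYO1D, MYO9B and MYO18A had -0.18, -0.21, -0.09 and -0.07. The sign was the same for 8 of 9 members and turned for MYO6, whose uncorrected value was within its standard error of 0. As the members were picked with these differences known, nothing is read from the signs kept.

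**Figure D4:**
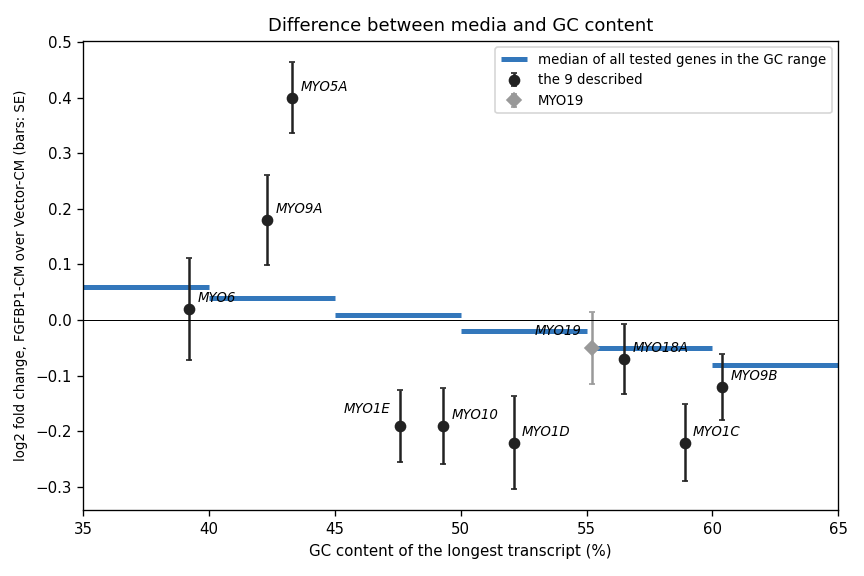
Log2 fold change (FGFBP1-CM over Vector-CM, bars are SE) against the GC content of the longest transcript for the 9 members and MYO19, with blue lines for the median of all tested genes in 6 GC ranges. MYO5A, at 43.3% GC and 0.40, lies farther above the line of its range (0.04) than any other gene shown. It was picked with this difference known, so nothing is read from its place.

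The genes whose pattern was most like that of MYO5A over the 6 libraries were found by the root mean square difference of log2 CPM centered on each gene's mean, among 9757 genes of at least 10 CPM. They were ZNF292 (0.0405), ZNF654 (0.0417), BRCA2 (0.0483), ZFHX4 (0.0503) and HMMR (0.0515), in units of log2 CPM. ZNF292, a zinc finger gene, had 86.5, 75.7 and 81.5 CPM in Vector-CM and 114, 104 and 105 CPM in FGFBP1-CM. Of the other members MYO9A was nearest, at a difference of 0.123 and place 575.

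The heavy chains beyond the members served as the rest of the superfamily. Of 30 further genes, 18 were tested, and none passed by edgeR. An unadjusted p under 0.05 was found for 5 of them (3 higher, MYO1F and MYH15 among them, and 2 lower, MYO15B and MYH9), as for 21.7% of all tested genes, and DESeq2 called 0 of the 9 for which it gave an adjusted p. MYH9, the main nonmuscle myosin II of stress fibers, had 311 ± 23.8 FPKM (SD, n = 6), far above any unconventional myosin, and a log2FC of -0.20 (SE 0.0713; adjusted p = 0.138, edgeR). MYH10 and MYH14, the other nonmuscle heavy chains, had 30.0 ± 2.18 and 2.02 ± 0.156 FPKM and log2FC values of -0.13 and 0.09 (adjusted p = 0.342 and 0.639, edgeR). MYO7B and MYO19 had log2FC values of -0.31 and -0.05 (adjusted p = 0.425 and 0.698, edgeR).

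Partners of the members were taken from 7 lists with 64 genes, of which 55 were tested. None passed by edgeR. An unadjusted p under 0.05 was found for 18 (4 higher, 14 lower), where 3630 of all tested genes, or 21.7%, had one (1850 higher, 1780 lower). DESeq2 called 7 of 52 (3 higher, 4 lower), where it called 4.65% of all genes with an adjusted p.

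Of 12 tested light chains and calmodulins, which stiffen and regulate the neck, 4 had a log2FC above 0 and 8 below, with a median of -0.14. The most abundant were MYL12B, MYL12A and CALM2. Their levels were 282 ± 19.1, 225 ± 14.1 and 112 ± 5.44 FPKM (SD, n = 6). Values of log2FC were -0.18, -0.17 and 0.03 (adjusted p = 0.143, 0.173 and 0.843, edgeR). That of CALM2 was -0.04 after GC and length correction. MYL12A and MYL12B are close copies, so reads could be split between them.

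Of 10 tested class V partners, 8 had a log2FC below 0 and 2 above, with a median of -0.05. RAB10 and RAB11A, vesicle GTPases, had 70.7 ± 2.32 and 32.3 ± 1.71 FPKM, and SPIRE1, an actin nucleator that binds the MYO5A tail, had 19.3 ± 0.269 FPKM (SD, n = 6). Their log2FC values were -0.05, -0.11 and 0.00 (adjusted p = 0.709, 0.363 and 0.996, edgeR). RAB27A and MLPH form with MYO5A the complex that holds melanosomes at the cortex, and are named after their values were seen, as is RAB11FIP2, an adaptor of recycling endosomes. RAB27A had a log2FC of -0.01 (adjusted p = 0.964, edgeR). MLPH had 49.9, 47.2 and 44.3 CPM in Vector-CM against 33.2, 41.7 and 36.9 CPM in FGFBP1-CM, with separate groups, and a log2FC of -0.34 (SE 0.089; adjusted p = 0.078, edgeR; 0.0102 to 0.242 over the alternatives). RAB11FIP2 had 40.1, 31.9 and 35.2 CPM against 43.0, 43.2 and 50.7 CPM, again with separate groups, and a log2FC of 0.35 (SE 0.0956; adjusted p = 0.0847, edgeR; 0.00393 to 0.264 over the alternatives).

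The 8 cargo adaptors of MYO6 had a median log2FC of 0.05, with 5 above and 3 below 0. DAB2, an endocytic adaptor, had 33.4 to 36.9 FPKM in the 6 libraries, and OPTN and CALCOCO2, autophagy receptors, had 31.0 ± 2.66 and 28.8 ± 0.41 FPKM (SD, n = 6). Values of log2FC were 0.04, -0.22 and -0.01 (adjusted p = 0.707, 0.111 and 0.951, edgeR), and that of CALCOCO2 turned in 4 of the alternatives.

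All 9 tested filopodium genes that act with MYO10 had a log2FC below 0, with a median of -0.19, and 5 of them had separate groups, all lower in FGFBP1-CM. Over all 16707 tested genes, 8235 had a log2FC below 0 and 13.2% had separate groups with FGFBP1-CM lower. No test was made of the list. FSCN1, the bundler of filopodial actin, had 30.5, 30.2 and 28.7 FPKM in Vector-CM against 20.8, 25.8 and 23.8 FPKM in FGFBP1-CM. Its log2FC of -0.38 (SE 0.082) did not pass (adjusted p = 0.0568, edgeR), and its adjusted p was 0.000292 to 0.242 over the alternatives, of which 4 of 16 passed. ITGB1, the integrin beta 1 chain, and DIAPH1, a formin, had log2FC values of -0.19 and -0.05 (adjusted p = 0.178 and 0.75, edgeR). DIAPH1 turned to 0.01 without FGFBP1-CM replicate 3.

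Of 6 MYO18A partners, 2 had a log2FC above 0 and 4 below, with a median of -0.08. GOLPH3, which recruits it to the Golgi, had 78.1 ± 2.84 FPKM (SD, n = 6) and a log2FC of -0.06 (adjusted p = 0.618, edgeR). PAK2 and CDC42BPB, kinases of actin turnover, had log2FC values of 0.01 and -0.09 (adjusted p = 0.937 and 0.45, edgeR). Among 3 tested chaperones of the motor fold, HSP90AA1 had 1490, 1240 and 1510 CPM in Vector-CM against 1990, 1600 and 2080 CPM in FGFBP1-CM, with separate groups, and a log2FC of 0.42 (SE 0.102) that did not pass (adjusted p = 0.068, edgeR; 2.9e-08 to 0.242 over the alternatives, 5 of 16 passing). HSP90AB1 and UNC45A, the myosin-specific chaperone, had log2FC values of 0.11 and -0.03 (adjusted p = 0.397 and 0.832, edgeR).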

How the data were processed

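Groups and replicate numbers came from the sample labels. Per the submitters' processing notes and the methods, alignment of paired-end reads was done by the authors with HISAT2 2.0.5 and counting per gene with featureCounts 1.5.0-p3. The authors deposited raw counts and, beside them, FPKM values. For the 9 members the gene length that the deposited FPKM implies (7806 to 20320 bases) was the same in the 6 libraries. The notes list hg18 without a role, and the annotation release and strand setting are not given in the sources used here, so reads of antisense neighbors could have been counted for a member. The methods give both poly(A) selection and ribosomal RNA depletion, and the labels the latter.

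Counts were analyzed with edgeR 4.0.16 in R 4.3.3: filterByExpr, TMM scaling, the quasi-likelihood F-test over 16707 genes and Benjamini-Hochberg adjustment at 0.05. The standard error is the log2 fold change divided by the square root of F. Alternatives were RLE or no scaling, other filters, DESeq2 1.42.0, limma 3.58.1 on log2(FPKM + 1) and log2(FPKM + 0.1), the replicate block, a loess correction (span 0.3) for GC content and length of the longest GENCODE transcript (98.2% of tested genes), and leaving out each library. The procedures were checked on synthetic counts.

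The members, the lists and the tests were chosen with earlier results of these data known. Beyond the members, the genes named from each list were those at an adjusted p under 0.05 and the 3 with the highest mean FPKM, plus the 5 genes nearest MYO5A in pattern; MLPH, RAB11FIP2, RAB27A and the genes listed by unadjusted p were named after their values were seen. Protein sequences were not used here, so the planned protein features were not analysed. One further myosin gene and the genes of 1 partner list are not reported here by name.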

Additional observations from a re-analysis of the deposited data

How the results depend on the processing

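The members were selected on these same differences, so their ranges, signs and calls over the alternatives describe the fits and are no support for them. The log2 fold change of MYO5A lay between 0.33 and 0.43 over 16 alternatives, and MYO5A was called in 11. It was not called in limma on log2(FPKM + 1) or log2(FPKM + 0.1), which called 0 members each, nor without any one Vector-CM library. Fits that left out 1 library called 0 to 2 members (MYO1C and MYO5A without FGFBP1-CM replicate 2), 0 to 1 of the other heavy chains and 0 to 5 partners, and 5 to 7 members then had separate groups. The sign of MYO6 was below 0 in 5 alternatives (lowest -0.08), while the other 8 members kept theirs.

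The number of genes called depended on the processing. Against 20, RLE scaling gave 38, keeping every gene with 1 count 1382, requiring a mean of 1 CPM 11, DESeq2 573, limma on either FPKM scale 1, the replicate block 90, GC and length correction 118, and that correction with the replicate block 108. The fits without 1 library gave 4 to 883, with 4 without Vector-CM replicate 2 or 3, 6 without Vector-CM replicate 1, and 72, 883 and 402 without FGFBP1-CM replicates 1, 2 and 3. Why was not tested. For the replicate block, same-numbered libraries deviated from their group means with correlations of -0.116, -0.0186 and 0.144, so the numbers were not taken as pairs. No filter called 1 other heavy chain (MYO1F) and 7 partners, DESeq2 7 partners, the replicate block 1 partner (HSP90AA1) and the correction with the replicate block 2 (HSP90AA1 among them), against 0.

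Values near 0 changed sign. CALM2 was -0.0406 after GC and length correction and -0.0405 with the block added, and -0.0112 to 0.0738 across the fits without 1 library. SPIRE1 was 0.0331 with library size only, 0.0115 with no filter, 0.0313 and 0.0327 in limma, CALCOCO2 0.0256, 0.00396, 0.0246 and 0.0254 in the same 4. PAK2 was -0.0608 after the correction and -0.058 with the block. UNC45A was 0.00476 with library size only, 0.00461 and 0.00502 in limma, and 0.018 and 0.0175 after the correction without and with the block. With 1 library left out, SPIRE1 ranged from -0.00952 to 0.0124, DIAPH1 from -0.0909 to 0.0116 and PAK2 from -0.0318 to 0.0445.

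Member overlap under the GC and length correction and the protein features were planned and not run. A count of 0 allows up to 3 counts, 0.158 to 0.217 CPM in these libraries, for counting error only.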

Other observations

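The 14 unconventional myosins of lowest level are motors known from other tissues. MYO3A, a motor of hair cell stereocilia, had 0 counts in all 6 libraries, and MYO3B, MYO18B and MYO1G, the last a myosin of blood cells, had 2 counts each in all 6 together. MYO1A and MYO7B, motors of the intestinal brush border, had 34 and 417 counts, and MYO5B and MYO5C, the class V motors of epithelia, 377 and 64. MYO7A, the Usher syndrome myosin, had 460 counts. MYO1F, otherwise a myosin of blood cells and named after its values were seen, had 32, 19 and 14 counts in Vector-CM against 65, 42 and 26 in FGFBP1-CM. Its log2FC was 0.89 (SE 0.309; adjusted p = 0.131, edgeR), 0.17 to 1.16 over 15 alternatives and 0.60 without FGFBP1-CM replicate 1. Its groups overlapped.

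Of the class II heavy chains of striated muscle, MYH6, MYH2 and MYH7 had at most 2 counts in a library, and MYH1, MYH4 and MYH8 at most 4. Higher counts were found for MYH3 (15 to 44), MYH7B (8 to 27) and MYH13 (10 to 15). MYH11, the smooth muscle heavy chain, had 52, 40 and 45 counts in Vector-CM against 59, 48 and 49 in FGFBP1-CM, a log2FC of 0.05 (adjusted p = 0.901, edgeR). MYH15 had 100, 70 and 95 counts against 146, 140 and 115, with separate groups and a log2FC of 0.46 (SE 0.145; adjusted p = 0.106, edgeR).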
